A study of Mus musculus with 12 samples.

Results

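Circulating leukocytes leave the blood in steps. Selectins on the vessel wall catch and roll them by binding sugar-coated ligands, integrins on the leukocyte then hold them firmly on immunoglobulin-type adhesion molecules of the endothelium, and the cells finally cross the junctions between endothelial cells. The transcripts of 10 genes that carry out these steps were followed in mouse back skin: the endothelial selectins Sele (E-selectin) and Selp (P-selectin) with the leukocyte ligand Selplg (PSGL-1), the integrin ligands Icam1, Icam2 and Vcam1, the chains Itgam and Itgb2 of the leukocyte integrin Mac-1, and the junction molecules Pecam1 (CD31) and Cdh5 (VE-cadherin). These 10 genes were chosen by name for their place in the cascade, out of 52636 genes in the count table. The choice was made with earlier results of these data known. All 10 were among the 17993 genes that passed the filter on low counts.

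The skin came from female BALB/c mice of 6 to 8 weeks. LL37, the human cathelicidin peptide whose intradermal injection gives a rosacea-like dermatitis, or control vehicle was injected into the back skin for 2 days, and RAPA (rapamycin, an mTORC1 inhibitor) was given intraperitoneally at 4 mg/kg per day. The 4 groups were control, control+RAPA, LL37 and LL37+RAPA, each with 3 libraries of whole-skin RNA from separate samples. Totals ran from 15734559 to 23271784 counts per library, so that 3 counts corresponded to 0.129 to 0.191 CPM, a gene's counts relative to the library total. Levels are CPM scaled by TMM (trimmed mean of M values), and differences are log2 fold changes from edgeR's quasi-likelihood test with a Benjamini-Hochberg adjustment over all tested genes. A gene rose or fell where the adjusted p was below 0.05, and counted as a DEG where its log2 fold change was also beyond 1 in size. Whole skin holds many cell types, and a change in the number of cells of a type cannot be told apart from a change in RNA per cell.

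In the GENCODE M21 annotation of the mm10 genome all 10 are protein-coding genes, counted over their exons. The selectins were Sele (ENSMUSG00000026582, chr1:164048234-164057677, plus strand) and Selp (ENSMUSG00000026580, chr1:164115264-164150026, plus strand), and their ligand was Selplg (ENSMUSG00000048163, chr5:113818536-113832644, minus strand). The integrin ligands were Icam1 (ENSMUSG00000037405, chr9:21015985-21028817, plus strand), Icam2 (ENSMUSG00000001029, chr11:106377656-106388075, minus strand) and Vcam1 (ENSMUSG00000027962, chr3:116109949-116129688, minus strand). The integrin chains were Itgam (ENSMUSG00000030786, chr7:128062640-128118491, plus strand) and Itgb2 (ENSMUSG00000000290, chr10:77530252-77565708, plus strand). The junction genes were Pecam1 (ENSMUSG00000020717, chr11:106654217-106750628, minus strand) and Cdh5 (ENSMUSG00000031871, chr8:104101625-104144511, plus strand), of which Pecam1 lies 266141 bases from Icam2. Itgam shares 3450 exon bases with the predicted gene Gm49368 on the same strand, which had at most 6 counts in a library, and antisense genes that overlap Selp, Icam1, Vcam1 and Cdh5 had at most 9, so reads assigned to these neighbours were few.

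One LL37 library was set apart from its group. A principal component analysis of log2 CPM placed LL37 replicate 3 at 64.4 on the leading axis (68.3% of variance), below the other LL37 libraries (129 and 133) and above the LL37+RAPA libraries (0.527 to 29.8), while libraries without LL37 spanned -70.6 to -50.2. Fold changes of the 10 genes in LL37 vs control are given with and without it, whereas marker lists and ratios are given with it.

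After injection of LL37 the transcripts of the leukocyte ligand Selplg and of both Mac-1 chains were higher, as were those of Selp, Icam1, Icam2 and Vcam1, whereas Sele and both junction molecules did not pass the test. In LL37 vs control, 7 of the 10 genes rose and none fell. Of all tested genes, 21.0% were higher in LL37 by the same rule. All risers but Icam2 were DEGs, 6 of 10 against 8.73% of all tested genes. The median log2 fold change of the 10 genes was 1.31, beside -0.00 for all tested genes. Leaving out LL37 replicate 3 also gave 7 calls, whereas leaving out control replicate 2, control replicate 3 or LL37 replicate 2 gave 4 in each case, and leaving out control replicate 2 gave 3 DEGs.

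**Figure D1:**
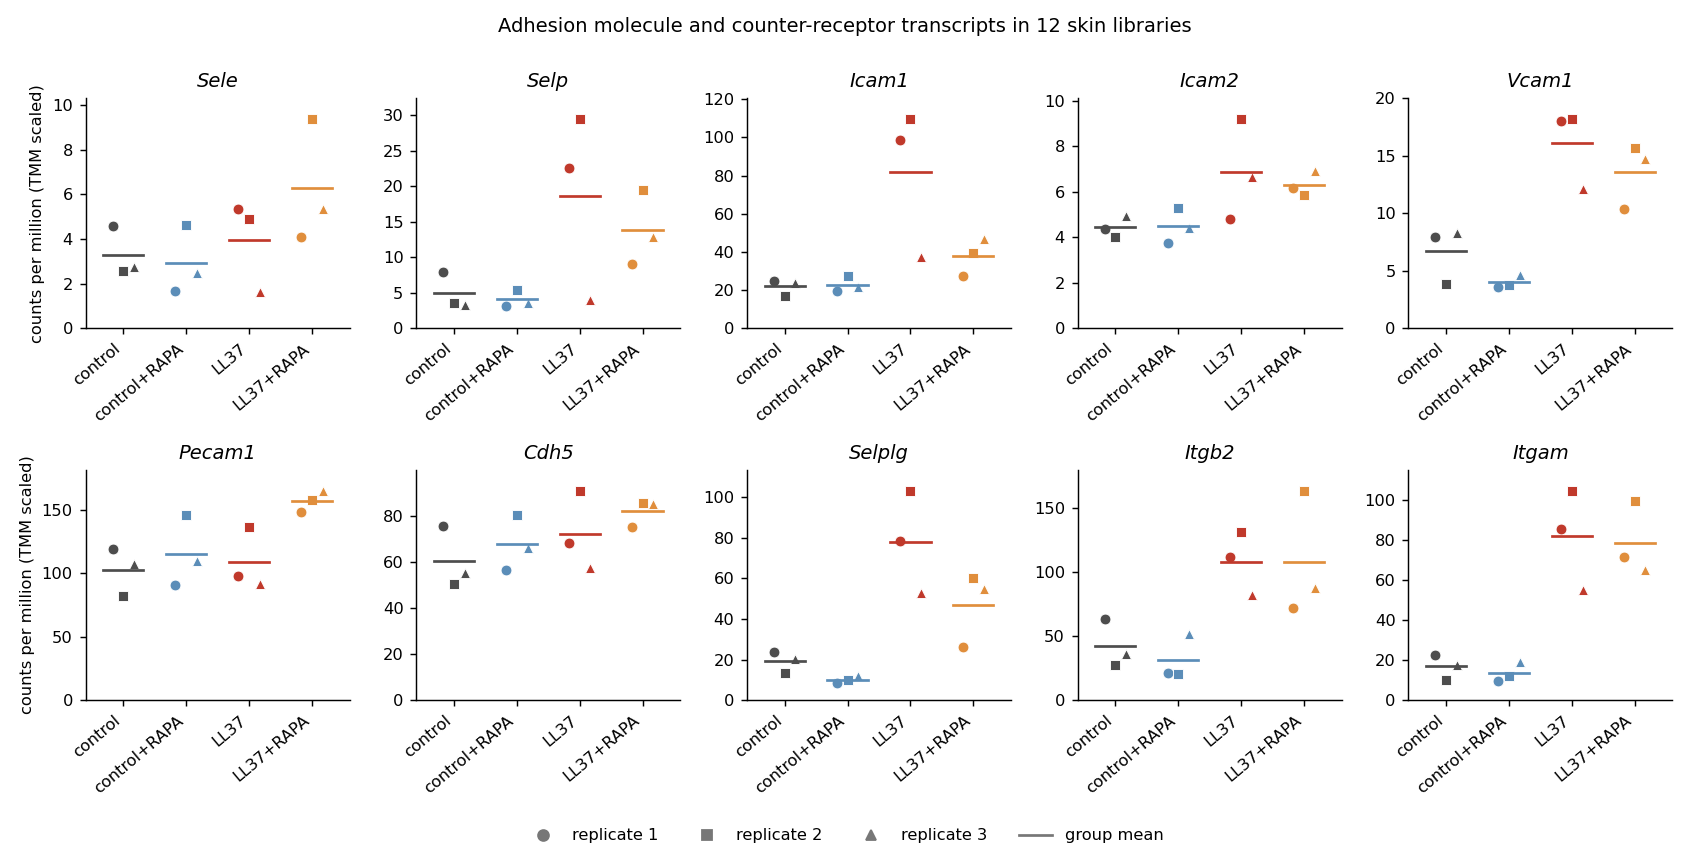
TMM-scaled CPM of the 10 genes (y axis, starting at 0, one panel per gene) in each of the 12 libraries, by group (x axis). Symbols are single libraries by replicate number and bars are group means. Selplg, Itgb2 and Itgam lie higher in all 3 LL37 libraries than in the control libraries, and LL37 replicate 3 (triangle) is the lowest of the LL37 group for Selp and Icam1.

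Among the selectins, Selp is stored in granules by endothelial cells and platelets, and endothelial cells also induce it. Selp was measured at 7.93, 3.59 and 3.32 CPM in the 3 control libraries and at 22.6, 29.4 and 3.96 CPM in the LL37 libraries. LL37 replicates 1 and 2 were above every control library, and LL37 replicate 3 lay inside the control range. The log2 fold change was 1.91 (SE 0.60, 3.76-fold, adjusted p = 0.0239). Without LL37 replicate 3 it was 2.42 (adjusted p = 0.000359). The call was lost when control replicate 2, control replicate 3, LL37 replicate 1 or LL37 replicate 2 was left out, with adjusted p between 0.0678 and 0.0885, and when the fit held only the libraries of the groups compared (adjusted p = 0.0805).

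Sele, the selectin that endothelial cells make on cytokine stimulation, lies in the selectin cluster of chromosome 1, 57586 bases from Selp. It read 4.58, 2.56 and 2.74 CPM in control and 5.33, 4.90 and 1.65 CPM in LL37 skin. The groups overlapped, and the lowest of these 6 values was again LL37 replicate 3. The log2 fold change was 0.26 (95% confidence interval -0.82 to 1.33, adjusted p = 0.704), and without LL37 replicate 3 it was 0.67 (adjusted p = 0.233). Each library of the 4 groups held only 31 to 229 counts of Sele, and the upper bound of the interval lies beyond the limit of 1 set for DEGs.

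Selplg, the main P-selectin ligand on leukocytes, read 23.8, 13.3 and 20.2 CPM in control skin and 78.2, 103 and 52.6 CPM after LL37. Every LL37 library was above every control library. The log2 fold change of 2.03 (SE 0.33, 4.08-fold, adjusted p = 0.000615) was the second largest of the 10 genes.

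Icam1, the inducible ligand of the leukocyte beta-2 integrins, read 25.0, 17.2 and 23.7 CPM in control and 98.5, 110 and 37.2 CPM in LL37 skin. All LL37 libraries exceeded all control libraries, with LL37 replicate 3 well below the other two. The log2 fold change was 1.89 (SE 0.35, 3.72-fold, adjusted p = 0.00118) and 2.27 without LL37 replicate 3.

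Icam2, which resting endothelium expresses constitutively, read 4.37, 3.999 and 4.95 CPM in control and 4.79, 9.19 and 6.64 CPM in LL37 skin, and the groups overlapped. Its log2 fold change was 0.63 (SE 0.23, 1.54-fold, adjusted p = 0.0453). This call was the weakest of the 7: it was lost without control replicate 1, 2 or 3 (adjusted p = 0.101, 0.132 and 0.0618), without LL37 replicate 2 (0.167), with genes of at least 1 count in total (0.066) and with only the groups compared (0.118), all by edgeR.

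Vcam1, the endothelial ligand of the alpha-4 integrins that some macrophages also express, read 7.98, 3.90 and 8.27 CPM in control and 18.0, 18.2 and 12.2 CPM in LL37 skin. The groups did not overlap. The log2 fold change was 1.26 (SE 0.28, 2.40-fold, adjusted p = 0.00364), and it passed with each library left out in turn.

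Both Mac-1 chains rose. Itgam, the alpha-M chain (CD11b) of neutrophils, monocytes and macrophages, read 22.8, 10.2 and 17.6 CPM in control and 85.6, 104 and 55.2 CPM in LL37 skin. No LL37 library overlapped with control, and the log2 fold change of 2.28 (SE 0.34, 4.85-fold, adjusted p = 0.00033) was the largest of the 10 genes. Itgb2, the beta-2 chain (CD18) shared by all leukocyte beta-2 integrins, read 63.5, 27.4 and 35.8 CPM in control and 112, 131 and 82.0 CPM in LL37 skin, again without overlap. Its log2 fold change was 1.36 (SE 0.43, 2.56-fold, adjusted p = 0.0238). That call was lost without control replicate 2 (adjusted p = 0.091), control replicate 3 (0.0838), LL37 replicate 1 (0.0557) or LL37 replicate 2 (0.0627) by edgeR.

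The junction molecules differed little on average. Pecam1, which endothelial cells, platelets and some leukocytes carry, read 119, 82.4 and 107 CPM in control and 97.6, 137 and 91.9 CPM in LL37 skin (log2 fold change 0.08, 95% confidence interval -0.35 to 0.51, adjusted p = 0.779). Cdh5, the cadherin of endothelial adherens junctions, read 75.5, 50.3 and 55.3 CPM in control and 68.1, 90.8 and 57.1 CPM in LL37 skin (log2 fold change 0.25, 95% confidence interval -0.17 to 0.68, adjusted p = 0.315). Both groups overlapped for both genes, and the upper bounds of these intervals lie below the log2 limit of 1 used for DEGs.

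Without LL37 replicate 3 the same 7 genes passed by edgeR, and 4541 of 18396 tested genes were higher in LL37 in that fit. The log2 fold changes were then 2.28 for Selplg, 0.68 for Icam2 (adjusted p = 0.0478), 1.46 for Vcam1, 2.53 for Itgam and 1.55 for Itgb2 (adjusted p = 0.0142). Pecam1 (0.21, adjusted p = 0.416) and Cdh5 (0.42, adjusted p = 0.0817) again did not pass. With all libraries kept, LL37 replicate 3 was the lowest of the LL37 group for 9 of the 10 genes, Icam2 being the exception.

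**Figure D2:**
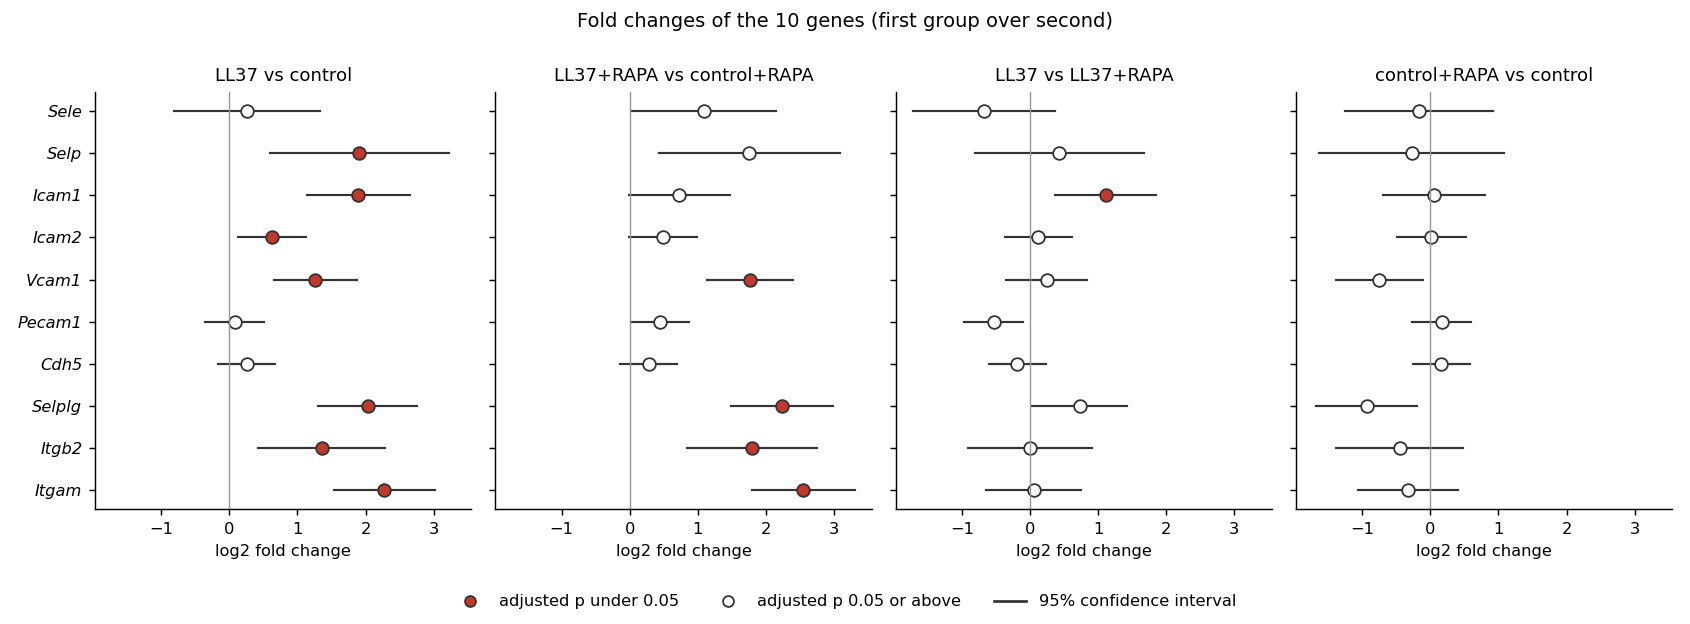
Log2 fold change (x axis) of each of the 10 genes (y axis) in 4 comparisons, with 95% confidence intervals as lines. Filled points passed an adjusted p of 0.05 by edgeR: 7 in LL37 vs control, 4 in LL37+RAPA vs control+RAPA, Icam1 alone in LL37 vs LL37+RAPA and none in control+RAPA vs control.

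Per kilobase of exon, levels can be compared roughly between genes. The length joins all annotated exons of a gene, from 1904 bases for Icam2 to 8870 for Vcam1. Where the transcripts present use fewer of these bases, the level is understated. Control skin was led by Pecam1 (16.5 ± 3.02 CPM per kb, SD, n = 3), Cdh5 (14.4 ± 3.18) and Itgb2 (13.8 ± 6.19), whose libraries overlapped. Icam1 (5.04 ± 0.955), Selplg (4.47 ± 1.24) and Itgam (3.35 ± 1.26) followed at levels that overlapped each other, and Icam2 (2.33 ± 0.252) overlapped with Itgam. Sele (1.13 ± 0.384), Selp (1.12 ± 0.586) and Vcam1 (0.757 ± 0.276) were lowest, overlapping each other and lying below Icam2 in all libraries. In LL37 skin the order changed. Itgb2 came first (35.5 ± 8.09 CPM per kb), above all values of Pecam1 and Cdh5, and Icam1 (18.7 ± 8.94), Selplg (18.2 ± 5.92), Pecam1 (17.5 ± 3.94), Cdh5 (17.1 ± 4.09) and Itgam (16.3 ± 4.95) overlapped behind it. Selp (4.23 ± 2.99), Icam2 (3.61 ± 1.161), Vcam1 (1.82 ± 0.388) and Sele (1.36 ± 0.692) remained the lowest, with Selp replicate values spread from 0.897 to 6.67.

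The start sites of Sele, Selp, Icam1 and Itgam, the 4 of the 10 genes with a promoter window in the RefSeq table used (GRCm38.p6), are shown for the 160 bases before each annotated start, because Selp, Icam1 and Itgam rose after LL37 whereas Sele did not pass. Capitals mark matches on either strand to a loose NF-kB pattern (GGG, then 5 bases of any kind, then CC), the AP-1 pattern, the TATA box or the core of many ETS sites. The AP-1 pattern was TGA, 1 base of any kind, then TCA. The TATA box was searched as TATAAA. The ETS core was searched as AGGAAG. In order, the windows are chr1:164048074-164048233, chr1:164115104-164115263, chr9:21015780-21015939 and chr7:128062480-128062639, all on the plus strand.
Sele: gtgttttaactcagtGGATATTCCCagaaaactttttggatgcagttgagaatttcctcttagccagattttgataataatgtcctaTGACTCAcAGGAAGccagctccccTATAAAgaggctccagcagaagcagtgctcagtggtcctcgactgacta
Selp: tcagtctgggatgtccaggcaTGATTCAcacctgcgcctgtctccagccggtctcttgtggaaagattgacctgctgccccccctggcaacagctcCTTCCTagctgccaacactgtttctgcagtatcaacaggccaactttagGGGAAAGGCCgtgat
Icam1: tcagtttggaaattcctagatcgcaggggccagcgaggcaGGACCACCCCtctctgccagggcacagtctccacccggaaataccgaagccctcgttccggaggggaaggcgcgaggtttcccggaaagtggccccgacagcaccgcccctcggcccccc
Itgam: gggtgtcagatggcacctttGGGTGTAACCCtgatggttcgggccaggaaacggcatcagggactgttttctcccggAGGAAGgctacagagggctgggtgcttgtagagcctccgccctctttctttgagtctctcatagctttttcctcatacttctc

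Within windows of 300 bases, 250 before and 50 after the start, the loose NF-kB pattern was found in all 4 genes and in 50.8% of all 32851 windows in the table. In Itgam, the 2 overlapping matches on opposite strands are marked as 1 run. A narrower NF-kB pattern, whose matches all match the loose one (GGG, 2 bases of any kind, TTT, CC), was in none of the 4 and in 1.63% of all windows. The AP-1 pattern was in Sele and Selp and in 7.81% of all windows, at -73 and -139 bases from the start. The TATA pattern was in Sele, at -49, and in Icam1, 14 bases after the RefSeq start, and in 13.6% of all windows. The ETS pattern was in Sele, Selp and Itgam and in 35.4% of all windows. Both NF-kB patterns need GGG on either strand, and sites without GGG were not searched. Matches are letters only, and no binding was measured.

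Markers of the cells that carry these molecules moved in different directions. Of 20 blood endothelial markers, 8 were lower in LL37 than in control, 1 was higher (Cd93, a receptor that myeloid cells share) and 11 did not pass, with a median log2 fold change of -0.23. Of all tested genes, 21.6% were lower by the same rule. Tek, the angiopoietin receptor, fell by 1.63 on the log2 scale (SE 0.19, adjusted p = 5.81e-05), Ptprb, the endothelial phosphatase VE-PTP, fell by 1.47 (SE 0.18), and Kdr, the main VEGF receptor, was 38.4 CPM in control and 30.3 CPM in LL37 skin (adjusted p = 0.186). Summed over the list, endothelial markers were at 657 to 827 CPM in control, 561 to 750 CPM in LL37, 887 to 1051 CPM in LL37+RAPA and 638 to 1025 CPM in control+RAPA skin, and no marker was at 0 in all libraries. Of 10 keratinocyte markers 6 rose in LL37 vs control and 0 fell, against 21.0% of all tested genes higher. Their sum was 20255 to 28100 CPM in control, 31482 to 40946 CPM in LL37 and 22433 to 23594 CPM in LL37+RAPA skin. Selp, Icam1 and Vcam1 rose in LL37 vs control too, and whether endothelial cells, keratinocytes or other cells made the added transcripts was not tested.

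Leukocyte markers rose with Selplg, Itgb2 and Itgam. All 12 markers shared by leukocytes rose, with a median log2 fold change of 1.62, and their sum was 316 to 499 CPM in control and 959 to 1579 CPM in LL37 skin. Ptprc (CD45) rose by 1.84 (SE 0.31, adjusted p = 0.000759). All 15 tested neutrophil markers rose, with a median of 4.74, among them Csf3r, the G-CSF receptor, from 8.45 to 226 CPM on average. The neutrophil sum was 58.5 to 154 CPM in control, 2563 and 3344 CPM in LL37 replicates 1 and 2, and 355 CPM in LL37 replicate 3, the library that was the lowest of the LL37 group for 9 of the 10 genes. Of 14 monocyte and macrophage markers, 12 rose and none fell, with a median of 1.39; Csf1r rose by 0.62 (SE 0.21, adjusted p = 0.0298). Of the 5 tested platelet markers, which bear on Selp and Pecam1, Pf4, Ppbp and Itga2b rose whereas Gp1ba and Gp1bb fell. How much of the change of each of the 10 genes came with these cells was not tested. Skeletal muscle markers fell in 19 of 19 tested, from a sum of 38752 to 55843 CPM in control to 153 to 975 CPM in LL37 skin, and the 10 genes gave the same 7 calls with that list removed before scaling.

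**Figure D3:**
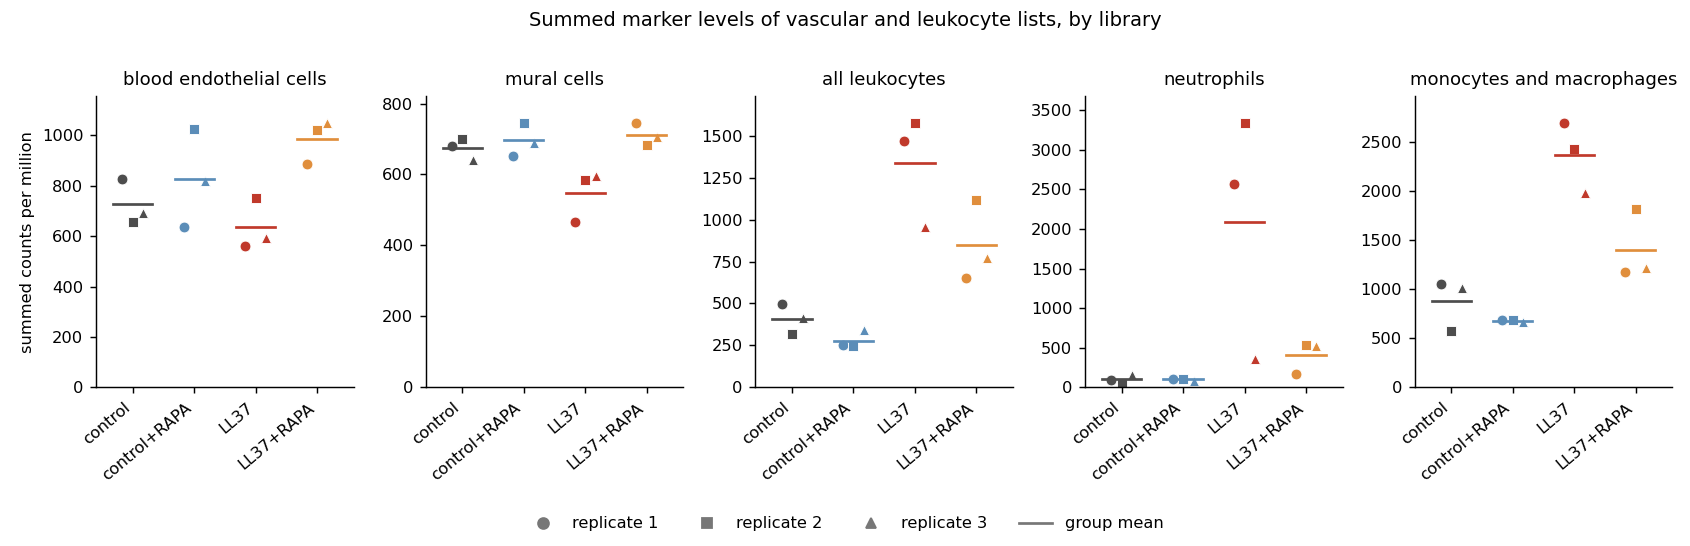
Summed TMM-scaled CPM (y axis, starting at 0) of marker lists for blood endothelial cells, mural cells, all leukocytes, neutrophils, and monocytes and macrophages, by library and group (x axis). Symbols are single libraries and bars are group means. Leukocyte sums are higher in all LL37 libraries than in control, the mean endothelial sum is highest in LL37+RAPA, and LL37 replicate 3 is at 355 CPM for neutrophils against 2563 and 3344 CPM in the other LL37 libraries.

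Set against Cdh5 in the same library, Icam1 and Vcam1 were still higher after LL37. Cdh5 scales for endothelial transcripts only, and which cells made the added Icam1 and Vcam1 transcripts was not tested. The log2 ratio of Icam1 to Cdh5 was -1.59, -1.54 and -1.22 in control and 0.53, 0.27 and -0.62 in LL37 skin, a difference of 1.51 with no overlap. The log2 ratio of Vcam1 to Cdh5 was 1.06 higher in LL37 than in control, also with no overlap. The ratio of Selp to Cdh5 was 1.34 higher but overlapped, with LL37 replicate 3 at -3.84 inside the control range of -4.05 to -3.25. For Sele the difference was -0.11. In an exact permutation test with 3 libraries a group no p can be below 0.1, the two-sided value found for Icam1 and Vcam1, and over the 16 ratios of the comparison the adjusted value was 0.229. With Kdr in place of Cdh5 these differences were 2.12 for Icam1, 1.67 for Vcam1, 1.95 for Selp and 0.50 for Sele. Over the 12 libraries, the Pearson r of Vcam1 was 0.954 with Itgam and 0.525 with Cdh5. For Icam1 it was 0.803 with Itgam and 0.567 with Cdh5. Within groups, r with Itgam and with Cdh5 was 0.830 and 0.593 for Vcam1, but 0.586 and 0.764 for Icam1.

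Within leukocyte transcripts, the log2 ratio of Itgam to Itgb2 was -1.48, -1.42 and -1.02 in control and -0.38, -0.33 and -0.57 in LL37 skin, a difference of 0.88 with no overlap, so that the alpha-M chain gained on the common beta chain. The ratio of Itgam to Ptprc was 0.49 higher in LL37 than in control, without overlap. The ratios to Ptprc of Selplg (0.20) and Itgb2 (-0.39) overlapped between the groups, and the smallest exact permutation p was again 0.1.

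**Figure D4:**
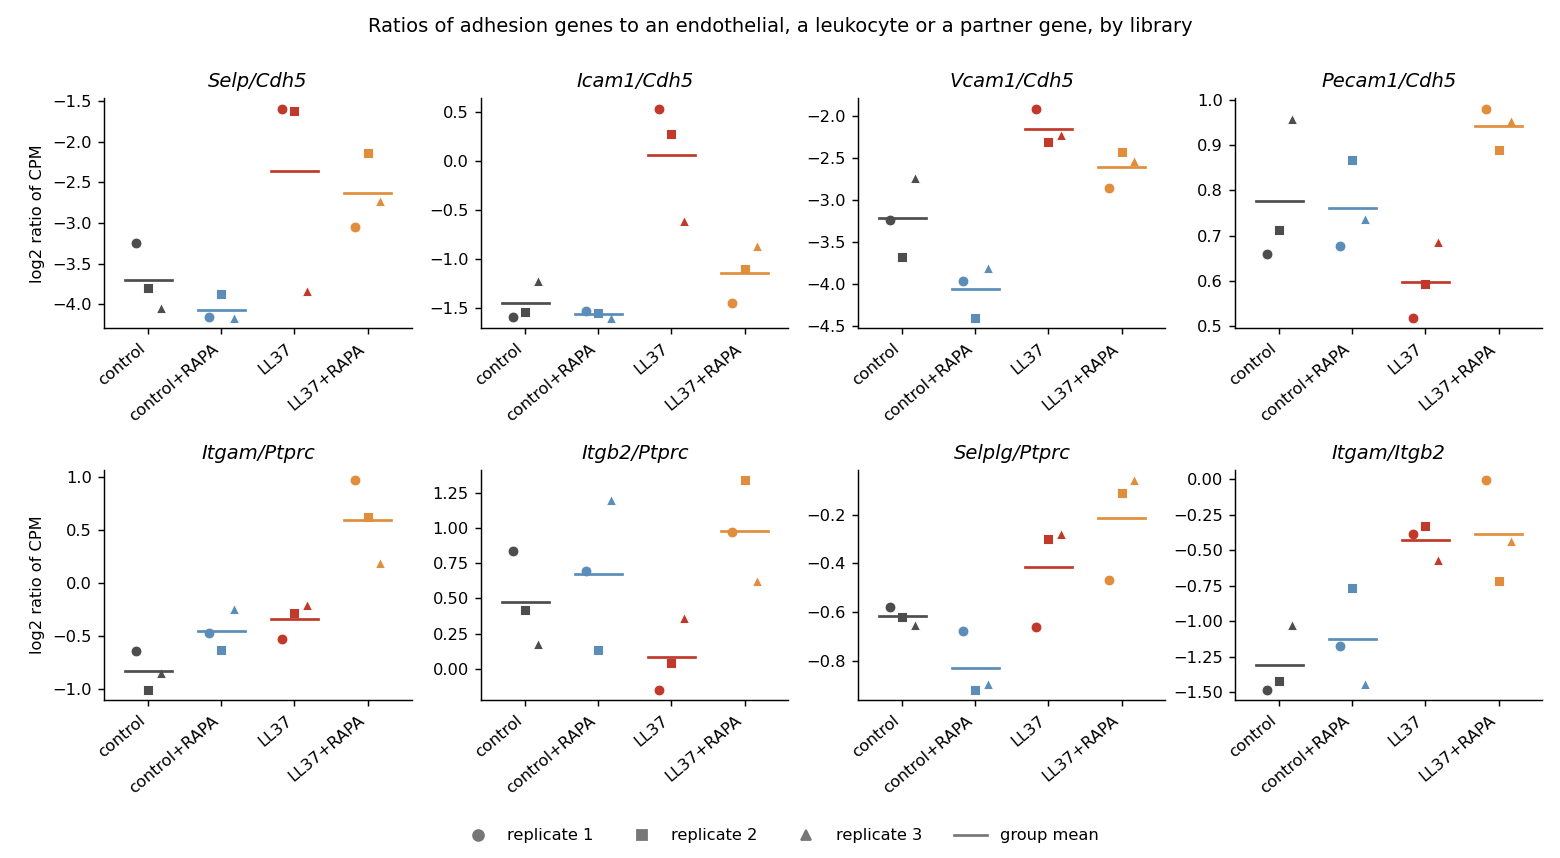
Log2 ratio (y axis, labelled as CPM, taken from counts with 0.5 added) of 8 gene pairs in each library by group (x axis). Symbols are single libraries and bars are group means. Icam1/Cdh5 and Itgam/Itgb2 are higher in every LL37 library than in every control library, Itgam/Ptprc is highest in LL37+RAPA, and Pecam1/Cdh5 is lower in all LL37 than in all LL37+RAPA libraries.

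With rapamycin, 1 of the 10 transcripts was lower in LL37-injected skin, a share close to that of all tested genes by adjusted p. In LL37 vs LL37+RAPA, Icam1 was higher in LL37 (1 of 10 genes, also the only DEG), against 11.8% of all tested genes higher by adjusted p and 4.33% by the DEG rule. Icam1 read 27.4, 39.5 and 46.6 CPM in LL37+RAPA beside 98.5, 110 and 37.2 CPM in LL37 skin. LL37 replicate 3 lay within the LL37+RAPA range, and the other two LL37 libraries lay above it. The log2 difference was 1.11 (SE 0.34, 2.16-fold, adjusted p = 0.034) and 1.46 without LL37 replicate 3 (adjusted p = 0.00041). The call was lost in 5 of the other leave-one-out fits (without LL37 replicate 1 or 2, or any LL37+RAPA library, adjusted p = 0.0523 to 0.126) and with only the groups compared (0.1), all by edgeR. This comparison shares its LL37 libraries with LL37 vs control.

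The remaining 9 genes did not pass in LL37 vs LL37+RAPA. Selplg read 26.3, 59.9 and 54.7 CPM in LL37+RAPA, overlapping with LL37 skin (log2 difference 0.73, 95% confidence interval 0.03 to 1.43, adjusted p = 0.116), and it passed only without LL37 replicate 3 (0.94, adjusted p = 0.0333). In the fit without that library, 3200 of 18396 tested genes were higher in LL37. Itgam read 71.4, 99.5 and 65.0 CPM and Itgb2 71.7, 164 and 87.8 CPM in LL37+RAPA, and both overlapped with LL37. Their log2 differences were 0.06 (95% confidence interval -0.64 to 0.75) and 0.01 (-0.91 to 0.92), so differences within these bounds were not excluded. Without LL37 replicate 3 they were 0.27 and 0.17. Vcam1 read 10.3, 15.7 and 14.7 CPM (0.24, -0.35 to 0.83) and Selp 9.06, 19.4 and 12.8 CPM (0.43, -0.81 to 1.67). Icam2 read 6.17, 5.85 and 6.90 CPM (0.12, -0.37 to 0.61). Sele read 4.08, 9.37 and 5.36 CPM in LL37+RAPA, its highest group mean, with a log2 difference of -0.67 (-1.72 to 0.37, adjusted p = 0.325).

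Pecam1 lay on the other side. It read 148, 158 and 165 CPM in LL37+RAPA, above every library of the other 3 groups, of which the highest was 146 CPM. The log2 difference between LL37 and LL37+RAPA was -0.53 (95% confidence interval -0.96 to -0.10), with an adjusted p of 0.0696 by edgeR that missed the threshold, and 0.0462 by DESeq2. Without LL37 replicate 3 it was -0.43 (adjusted p = 0.134 by edgeR). Cdh5 read 75.2, 85.3 and 85.3 CPM in LL37+RAPA (log2 difference -0.19, adjusted p = 0.504). The log2 ratio of Pecam1 to Cdh5 was 0.98, 0.89 and 0.95 in LL37+RAPA and 0.52, 0.59 and 0.68 in LL37 skin, with no overlap (difference -0.34, exact permutation p = 0.1, the smallest possible). Blood endothelial markers were lower in LL37 than in LL37+RAPA for 10 of 20, with none higher and a median of -0.68, against 12.4% of all tested genes lower. Skeletal muscle markers were lower in LL37 than in LL37+RAPA for 19 of 19 tested (median -3.84) and adipocyte markers for 8 of 8 (median -2.36). The part of these lists in the Pecam1 values was not tested.

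Leukocyte markers were called in part in LL37 vs LL37+RAPA. Of the 12 shared leukocyte markers 5 were higher in LL37 than in LL37+RAPA and none was lower, and of 15 neutrophil markers 8 were higher, with a median of 2.32, against 11.8% of all tested genes. Ptprc averaged 105 CPM in LL37 and 52.7 CPM in LL37+RAPA (log2 difference 0.99, adjusted p = 0.0356), and Itgam and Itgb2 had differences of 0.06 and 0.01 whose intervals hold the median of the 12 markers, 0.63. The log2 ratio of Itgam to Ptprc was 0.97, 0.62 and 0.19 in LL37+RAPA and -0.53, -0.28 and -0.21 in LL37 skin, a difference of -0.93 with no overlap, and that of Itgb2 to Ptprc differed by -0.89, also with no overlap (exact permutation p = 0.1 for each, adjusted 0.178 over 16 ratios). With Coro1a in place of Ptprc the differences were -0.46 and -0.42. Icam1 relative to Cdh5 was 1.21 higher in LL37 than in LL37+RAPA with no overlap, and 0.93 higher relative to Kdr. Of 10 keratinocyte markers, 6 were also higher in LL37 than in LL37+RAPA and 0 were lower. Which cells the Icam1 difference came from was not tested.

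Several of these transcripts also rose after LL37 in rapamycin-treated mice. In LL37+RAPA vs control+RAPA, Vcam1, Selplg, Itgb2 and Itgam rose, 4 of 10 genes and all of them DEGs, against 8.20% of all tested genes higher by adjusted p and 4.07% by the DEG rule. Leukocyte markers rose in this comparison too: all 12 shared markers (median 1.74), 9 of 15 neutrophil markers and 11 of 14 monocyte and macrophage markers, with 0 lower. Their part in the rise of these 4 genes was not tested. Itgam read 9.54, 11.9 and 18.9 CPM in control+RAPA, and its log2 fold change was 2.55 (SE 0.34, adjusted p = 0.000462). Selplg read 8.30, 9.68 and 12.03 CPM in control+RAPA (2.23, SE 0.34, adjusted p = 0.00101) and Vcam1 3.58, 3.75 and 4.66 CPM (1.77, SE 0.29, adjusted p = 0.00147). None of these groups overlapped with LL37+RAPA. Itgb2 read 21.5, 20.1 and 51.4 CPM in control+RAPA (1.80, SE 0.43, adjusted p = 0.0136), a call lost without LL37+RAPA replicate 2, control+RAPA replicate 1 or control+RAPA replicate 2 (adjusted p = 0.0669, 0.0645 and 0.0602 by edgeR). Selp read 3.14, 5.43 and 3.63 CPM in control+RAPA and did not overlap with LL37+RAPA, with a log2 fold change of 1.76 whose adjusted p of 0.0661 missed the threshold by edgeR and was 0.00949 by DESeq2. Icam1 read 19.6, 27.3 and 21.6 CPM in control+RAPA (0.73, adjusted p = 0.172). The split of all calls moved with the scaling here: 44.2% of called genes were higher with TMM and 72.5% with library sizes alone, while these 4 genes were higher with both.

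Against untreated control skin, LL37+RAPA skin was higher in Itgam (2.22, SE 0.34, adjusted p = 0.00108), Selplg (1.301, SE 0.33, adjusted p = 0.021) and Vcam1 (1.02, SE 0.28, adjusted p = 0.0307), 3 of 10 genes and all DEGs. The background was 5.03% of all tested genes by adjusted p and 2.15% by the DEG rule. Of the 12 shared leukocyte markers 9 were higher as well, as were 5 of 15 neutrophil and 4 of 14 monocyte and macrophage markers, with 0 lower. Itgb2 (1.35, adjusted p = 0.0568) and Pecam1 (0.61, adjusted p = 0.0625) did not overlap with control but missed the threshold, as did Selp (1.48, adjusted p = 0.131), Icam1 (0.78, adjusted p = 0.16) and Icam2 (0.51, adjusted p = 0.178). Only Itgam passed when control replicate 2, LL37+RAPA replicate 2 or LL37+RAPA replicate 3 was left out, whereas DESeq2 called 6 of the 10 genes. Of all called genes 35.8% were higher with TMM and 61.3% with library sizes alone. The groups differed in both LL37 and rapamycin.

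In skin without LL37 no difference with rapamycin passed at this number of libraries. In control+RAPA vs control 0 of 10 passed by edgeR and 0 of 10 by DESeq2, and 2 had an unadjusted p below 0.05 by edgeR. These were Selplg (log2 fold change -0.93, SE 0.34, adjusted p = 0.496) and Vcam1 (-0.75, SE 0.29, adjusted p = 0.518). Selplg was lower in all 3 control+RAPA libraries than in any control library. Over all tested genes 0% were called by edgeR, with 1556 at an unadjusted p below 0.05, and DESeq2 called 102 genes. The 95% confidence intervals of the log2 fold change were widest for Selp (-1.63 to 1.08) and Sele (-1.25 to 0.93), and those of Pecam1 (-0.27 to 0.60) and Cdh5 (-0.26 to 0.58) stayed within 1. In control+RAPA skin Pecam1 read 90.5, 146 and 110 CPM, Cdh5 56.6, 80.2 and 65.8 CPM, Icam2 3.74, 5.28 and 4.43 CPM and Sele 1.68, 4.64 and 2.48 CPM. For each of these 4 genes control+RAPA replicate 2 was the highest of its group, and the group overlapped with control.

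Whether the effect of LL37 differed with and without rapamycin was tested as the interaction of LL37 and RAPA. By edgeR 0 of 10 genes passed, as did 0 by DESeq2. Of all tested genes 3.28% passed in either direction, of which 34.4% were positive with TMM and 21.0% with library sizes alone. At an unadjusted p below 0.05 by edgeR there was 1 of the 10 genes, beside 4049 of all 17993 tested genes. That gene was Icam1, whose LL37 effect was 1.17 larger on the log2 scale without rapamycin (95% confidence interval 0.12 to 2.21, adjusted p = 0.179). Without LL37 replicate 3 it was 1.51 larger and passed (adjusted p = 0.00499), in a fit where 3145 of 18396 tested genes passed. For Itgam the difference of effects was -0.27 (-1.29 to 0.74), for Selplg -0.21 (-1.21 to 0.80), for Itgb2 -0.44 (-1.74 to 0.86) and for Vcam1 -0.50 (-1.37 to 0.36). Each of these intervals reaches beyond 1 in size, so a difference of that size was not excluded here.

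Further genes of the cascade, taken from lists by role, are given for LL37 vs control with the same rule, under which 21.0% of all tested genes rose and 21.6% fell. Among other selectin ligand genes, Cd44 rose and Cd34 and Podxl fell. Cd44, a hyaluronan receptor and E-selectin ligand, rose by 1.58 (adjusted p = 9.33e-05), Cd34, a sialomucin of endothelium and hair follicle stem cells, fell by 1.08 (adjusted p = 0.00027), and Glg1, the ESL-1 ligand of E-selectin, was at 119 and 139 CPM (adjusted p = 0.127). Of 10 tested of 11 enzymes that build selectin ligand sugars, 5 rose and none fell, including the sulfotransferase Chst2 (1.498, adjusted p = 0.000234) and the fucosyltransferase Fut4 (1.46, adjusted p = 0.00131). Fut7, the other leukocyte fucosyltransferase, averaged 0.457 and 0.789 CPM (adjusted p = 0.409).

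Of 14 other integrin chains, 8 rose and none fell. Itgal, the alpha-L chain that pairs with Itgb2 to form LFA-1 and binds Icam1 and Icam2, averaged 4.24 CPM in control and 25.4 CPM in LL37 skin (2.58, SE 0.52, adjusted p = 0.00199), and it was also higher in LL37 than in LL37+RAPA (1.45, adjusted p = 0.0487). Itgam, its sister chain, differed by 0.06 in that comparison. Itgax, the alpha-X chain of dendritic cells and macrophages, averaged 16.0 and 19.1 CPM (0.26, adjusted p = 0.553), and Itga4, the chain that binds Vcam1, 6.29 and 9.75 CPM (0.63, adjusted p = 0.0504). The largest calls by p were Itga6 (1.39, adjusted p = 0.000121), an integrin of basal keratinocytes as well, and Itgav (0.52, adjusted p = 0.000565). Of 13 genes that switch leukocyte integrins on, 9 rose and none fell, among them the adaptor Skap2 (1.17, adjusted p = 0.000373) and the small GTPase Rap1b (0.99, adjusted p = 0.000554).

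Other junction and adhesion genes were called in shares close to those of all tested genes. Of 15 tested of 17, F11r, Mcam, Tjp1 and Cd47 rose and Jam2, Cldn5 and Cd99l2 fell, 4 and 3 of 15 beside the 21.0% higher and 21.6% lower over all tested genes. Cd99l2, which takes part in leukocyte crossing, fell by 1.69 (SE 0.17, adjusted p = 2.1e-05), and Cldn5, the claudin of endothelial tight junctions, fell by 0.85 (adjusted p = 0.0013). Cd47, a widely expressed receptor that takes part in transmigration, rose by 0.73 (adjusted p = 0.000129). All 4 tested of 5 sheddases, the proteases that cut adhesion molecules from cells, rose: Adam8 by 2.54 (adjusted p = 0.000713), Adam10 by 0.74 (adjusted p = 0.000111), and Adam17 and Mmp9. Adam10, Adam17 and Adam8 were also higher in LL37 than in LL37+RAPA. A list of 9 genes of venular and activated endothelium held Sele and Selp, and also genes that other cells of skin express, such as Cd14 (also in the monocyte and macrophage list), Il6 and Csf3. Of these 9, 7 rose, against 21.0% of all tested genes, and their sum was 76.2 to 151 CPM in control, 1028 and 1021 CPM in LL37 replicates 1 and 2 and 218 CPM in LL37 replicate 3. The gene that fell was Ackr1, the chemokine-binding protein of venules (-0.91, adjusted p = 0.0211). Of 9 mural cell markers 4 fell, against 21.6% of all tested genes, and none rose, led by the channel subunit Abcc9 (-3.88, adjusted p = 1.45e-06) and the potassium channel Kcnj8 (-1.71, adjusted p = 0.00031), the first of which skeletal muscle also expresses.

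The genes whose log2 CPM followed a member most closely over the 12 libraries, as a description of libraries that share 4 groups and 1 scaling, differed by member. For Itgam they were Ccr1 (Pearson r = 0.991), Ccl9 (0.99) and Dab2 (0.987). For Vcam1 they were Msr1 (0.985), AI662270 (0.984) and Chil3 (0.984). For Cdh5 they were Pdgfrb (0.948), Eng (0.943) and Sh2b2 (0.928), and for Sele Lrpap1 (0.925), Lamb1 (0.912) and Ptpn9 (0.901). The highest r was thus lower for Sele and Cdh5 than for Itgam and Vcam1.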

How the data were processed

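RNA from 12 whole-skin samples (4 groups of 3) was sequenced by the authors, who deposited raw gene counts. The submitters' processing notes list HISAT2 2.0.5, StringTie 1.3.3b, featureCounts 1.5.0-p3 and DESeq2 1.16.1 with genome mm10, whereas the study's methods name HTSeq and DESeq, so the counting program is not settled. Whether counting used strand is not given in the sources used here.

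Of 52636 gene IDs 52489 had a symbol in GENCODE M21. Counts were tested with edgeR 4.0.16 in R 4.3.3 (filterByExpr, TMM, glmQLFit and glmQLFTest, 1 fit of 4 groups, Benjamini-Hochberg over 17993 genes). Libraries of one group differed by more than sampling noise (mean chi-square per gene 13.8 to 70.1). Same-numbered libraries were not treated as paired, since sample titles give only a group and a number. Correlations of their deviations from group means ran from -0.188 to 0.263. With 3 libraries a group these correlations cannot exclude a shared batch. Ratios were log2 ratios of the counts of 2 genes in a library, with 0.5 added to each count, and were tested by exact two-sided permutation. Lists were named by their 2 smallest p in LL37 vs control plus fixed partners; Podxl, Cd93, F11r, Mcam, Tjp1, Jam2, Cldn5, Adam17, Mmp9, Itga2b, Gp1ba, Gp1bb, Ackr1, Cd14, Il6 and Csf3 were added after their values were seen, to name members of small counts. The 10 genes and all lists were chosen with earlier results of these data known. The study states 3 independent biological samples per group. Scripts were tested on simulated data. Promoters were matched by symbol to RefSeq windows (4 of 10). Alternatives were library scaling, filters, DESeq2 1.42.0, replicate block, fewer groups and each library left out. One listed gene is not reported here.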

Additional observations from a re-analysis of the deposited data

How the results depend on the processing

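No call of any of the 10 genes changed direction: of 890 values of the 10 genes under alternatives, 785 kept direction and side of the threshold, 25 passed newly, 36 no longer passed, and 44, none of them called, changed sign. In LL37 vs LL37+RAPA the 1 call became 2 with genes of at least 1 count in total and with DESeq2, and 0 (also 0 DEGs) with the replicate block and with only the groups compared. In LL37+RAPA vs control the 3 calls became 5 with library sizes only and with at least 1 count in total, 6 with DESeq2 (5 DEGs) and with only the groups compared, and 1 (1 DEG) with the replicate block. The block was not taken as a pairing, since no pairing is labelled and deviations of same-numbered libraries correlated weakly (-0.188 to 0.263). A shared batch was not excluded by this. With each library left out in turn, calls ranged from 4 to 7 (3 to 6 DEGs) in LL37 vs control, 0 to 2 (0 to 1 DEGs) in LL37 vs LL37+RAPA, 1 to 4 (1 to 4 DEGs) in LL37+RAPA vs control and 0 to 1 for the interaction, where the 1 came without LL37 replicate 3. With LL37 replicate 3 left out, 3145 of 18396 tested genes passed the interaction. The causes were not tested. Uncalled log2 values that changed sign with a library left out ranged as follows. In LL37 vs control they were Pecam1 -0.0861 to 0.21 and Sele -0.0270 to 0.67. In LL37 vs LL37+RAPA they were Itgb2 -0.22 to 0.44, Selp -0.0571 to 0.91, Icam2 -0.13 to 0.33 and Itgam -0.16 to 0.27. In control+RAPA vs control they were Icam2 -0.12 to 0.11, Sele -0.67 to 0.14, Selp -0.55 to 0.23, Icam1 -0.12 to 0.15 and Pecam1 -0.0468 to 0.28. In the interaction they were Selp -0.33 to 0.65, Cdh5 -0.22 to 0.15, Icam2 -0.12 to 0.34 and Selplg -0.49 to 0.0134. Itgb2 in LL37 vs LL37+RAPA read -0.0337 with library sizes only, -0.0134 with at least 1 count in total and -0.0056 with at least 10 counts in every library, Icam2 in control+RAPA vs control read -0.0400, -0.00171 and -0.00401 with library sizes only, the muscle list removed and at least 1 count in total, and the Selp interaction -0.0573 with the replicate block. With library sizes only the median of all genes was 0.13 in LL37+RAPA vs control, 0.18 in LL37+RAPA vs control+RAPA and -0.11 in the interaction; relative to the median of all genes, called members in the first 2 stayed between 1.01 and 2.55. Depth limits Sele most, whose lowest library held 31 counts.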
